A study of Mus musculus with 20 samples.

Results

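The cytosolic ribosomal protein genes are described here in colorectal tumors and adjacent tissue of ApcMin/+ mice with and without Erbb2 in the intestinal epithelium. They were taken as the rows of the count files whose symbol is Rpl or Rps followed by a number, with an optional a, x or l, or by p0, p1 or p2. This gave 82 of 46329 rows, 51 of the large subunit and 31 of the small subunit. Symbols of other form, such as Rpsa, Fau and Rack1, are outside this rule and are given as a separate list.

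The 20 RNA-seq libraries came from C57BL/6J mice at 100 days of age, all of which carried the ApcMin allele (ApcMin/+), which predisposes to intestinal tumors. Erbb2-deficient mice also carried a floxed Erbb2 gene and a cre transgene under the promoter of villin (Vil1), which drives it in intestinal epithelial cells, so that other cells of the tissue keep the gene. Control mice, whose genotype is labelled WT, carried ApcMin and no Erbb2 deficiency, and are littermates with the floxed gene and no cre. Colorectal tumors and adjacent non-tumor epithelium of each genotype gave 4 groups of 5 libraries, made with a stranded mRNA kit from total RNA. Nothing in the labels says which tumor and adjacent sample shared a mouse, so the p-values measure the spread between libraries.

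Ribosomal proteins assemble with ribosomal RNA into a large subunit, where peptide bonds are made, and a small subunit, where the messenger RNA is read. Their genes are among the most highly transcribed of a proliferating epithelium, and their messenger RNAs begin with a run of pyrimidines, the 5' TOP motif, through which mTORC1 and LARP1 control their translation. MYC raises their transcription, and several of the proteins bind the p53 regulator Mdm2 when ribosome assembly is disturbed. In intestinal tumors that have lost Apc, ribosome production is known to be raised downstream of Wnt and MYC.

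The libraries had 1071737 to 1944309 counts on gene rows, which were 2.51% to 3.45% of the reads of a file, and 78.6% to 85.1% of the reads fell on no counted feature. The member rows together had 2116 to 8829 counts per library, or 0.164% to 0.489% of the counts on genes (median 0.263%). These are small shares for this family. Of the 17 rows of other genes that lie opposite a member, 10 had more counts than the member and 7 had fewer. The strand setting of the counting step is not given in the sources used here. If stranded reads were counted on the opposite strand, a member's row would hold few reads of its messenger RNA. A symbol is therefore used here as the name of a row of the files and not of a measured transcript. In GENCODE M21, 18 member rows overlap an opposite-strand exon of a second gene and hold 28.4% of the members' counts, 16 have no such exon but come within 1000 bases of a gene on the other strand or lie in its introns, and 48 have neither and hold 52.8%. Within a row, reads of a gene and of its opposite partner cannot be told apart, and in bulk tissue fewer cells of a type cannot be told apart from less RNA per cell.

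Labelled tissue was checked against marker lists. The 9 epithelial markers were all detected in every group and summed to 268 to 763 CPM (TMM-scaled counts relative to library size) in 19 libraries, and to 18.2 CPM in control tumor 2. That library also had 0 CPM in the summed 7 goblet cell markers and 281 CPM in the 9 lymphoid markers, which summed to 8.41 to 66.7 CPM in the other 19. Adjacent samples had 1062 to 2532 CPM in the 9 smooth muscle markers and tumors 162 to 520 CPM. By these markers the adjacent samples were not epithelium alone. Control tumor 2 goes against its label by its epithelial markers, so values without it are given beside the results that rest on it. Control tumor 3 stood apart too, with 601 CPM of goblet cell, 105 CPM of absorptive colonocyte and 520 CPM of smooth muscle markers, beside 0 to 54.4 CPM, 0.908 to 11.0 CPM and 162 to 225 CPM in the other control tumors. Both were therefore also left out together.

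Of the 82 member rows, 70 passed the filter on low counts (43 large, 27 small). Their mean count per library ran from 7.55 to 240.7, with a median of 37.8 (28 for all 7119 rows tested). The other 12 were not tested. They include 5 standard subunit proteins, Rpl15 (mean 5.15 counts), Rpl27 (4.90), Rpl30 (mean 3.9), Rps13 (7.10) and Rps27a (6.10), which is made as a fusion to ubiquitin. Rpl10l and Rpl39l, germ cell paralogs, were at 0 in all 20 libraries, and Rpl3l, a striated muscle paralog, had at most 7 counts in a library. Rpl32l, Rpl6l, Rps27l and Rps4l had means of 1.9 to 4.75 counts, and 18 counts was the most any untested member had in a library. GENCODE M21 types Rpl32l, Rpl6l and Rps4l as processed pseudogenes. Their symbols match the rule, so they are among the 82 rows.

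Promoter sequence is shown as a description of the family, and its part in the levels of the rows was not tested. RefSeq promoters (assembly GRCm38.p6, 250 bases before to 50 after a start site) were present for 60 of the 82 members and for 27025 genes in all. The windows printed here run from 100 bases before the start site to 20 bases from it on, 5' to 3' on the gene's strand. Capitals mark CTTTCC or GGAAAG, a pyrimidine run and its reverse complement, and CCGGAAG or CTTCCGG, an ETS type motif on either strand. Shown are Rpl10a, which was called in edgeR, and Rpl35, Rpl31, Rpl23 and Rps2, which are described below but did not pass in edgeR. A pair with high counts (Rpl4, Rps25) is shown too.
Rpl35, chr2:39005112-39005231, minus strand: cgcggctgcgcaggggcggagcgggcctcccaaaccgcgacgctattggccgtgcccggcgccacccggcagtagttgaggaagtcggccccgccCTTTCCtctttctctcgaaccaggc
Rpl31, chr1:39367751-39367870, plus strand: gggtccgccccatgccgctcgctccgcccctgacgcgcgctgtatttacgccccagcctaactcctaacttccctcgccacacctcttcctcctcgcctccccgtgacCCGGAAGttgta
Rpl23, chr11:97782420-97782539, minus strand: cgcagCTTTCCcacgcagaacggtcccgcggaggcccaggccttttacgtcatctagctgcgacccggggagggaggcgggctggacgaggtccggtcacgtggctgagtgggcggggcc
Rpl4, chr9:64173287-64173406, plus strand: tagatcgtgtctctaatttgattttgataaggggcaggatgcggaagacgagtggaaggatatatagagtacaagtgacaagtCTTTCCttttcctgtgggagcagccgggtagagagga
Rps25, chr9:44407614-44407733, plus strand: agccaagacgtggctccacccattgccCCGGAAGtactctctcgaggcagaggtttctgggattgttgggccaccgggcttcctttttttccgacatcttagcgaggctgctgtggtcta
Rps2, chr17:24719963-24720082, plus strand: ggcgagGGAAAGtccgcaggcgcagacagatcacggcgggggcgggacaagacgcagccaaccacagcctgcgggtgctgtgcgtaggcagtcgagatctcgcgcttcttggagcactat
Rpl10a start 1, chr17:28328371-28328490, plus strand: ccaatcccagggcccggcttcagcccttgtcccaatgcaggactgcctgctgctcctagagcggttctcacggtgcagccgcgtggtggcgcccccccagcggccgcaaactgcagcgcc
Rpl10a start 2, chr17:28328465-28328584, plus strand: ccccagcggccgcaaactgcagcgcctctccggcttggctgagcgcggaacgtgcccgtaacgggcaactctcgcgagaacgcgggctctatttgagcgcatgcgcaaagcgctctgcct

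Of these, the Rpl31 and Rps25 windows hold the ETS type motif, and those of Rpl35, Rpl23, Rpl4 and Rps2 the pyrimidine run or its complement. Neither start of Rpl10a has these letters in the window. Windows of Rpl27a, Rpl5, Rps24, Rpl13 and Rps23 were read too and are not printed, and none holds these letters. Start 1 of Rpl19, also not printed, holds the ETS type motif and start 2 holds neither. The printed windows are therefore no fair sample of the members. Over the full 300 bases, CTTTCC or GGAAAG was found in 31 of 60 member promoters (51.67%) and in 29.32% of all promoters in the table. It was held by 23 of 38 large and 8 of 22 small subunit members. CCGGAAG or CTTCCGG was in 24 of 60 (40%) and in 9.928% of all, and AAGATGGC or GCCATCTT, a YY1 type motif, in 5 of 60 (8.333%) and in 3.19% of all. Matches of different motifs were counted separately and can share bases. The first 5 bases from the start site were all C or T in 17 of 60 members (28.33%) and in 5.277% of all genes, and the first base was C in 20 of 60 (33.33%) and in 18.86%. These are matches of letters and no measure of binding.

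Member rows were high or low together from library to library within each group. One library per group had the highest value of that group for most of the 70 tested members: control adjacent 1 in 49, control tumor 2 in 61, Erbb2-deficient adjacent 1 in 62 and Erbb2-deficient tumor 2 in 54. The same libraries were highest in 21.3%, 29.2%, 25.5% and 20.3% of all tested rows. Lowest values were most frequent in control adjacent 4 (32 members), control tumor 5 (42), Erbb2-deficient adjacent 4 (41) and Erbb2-deficient tumor 3 (32). These libraries were lowest in 17.3%, 12.5%, 23.2% and 22.9% of all tested rows. Control adjacent 3 was almost level with control adjacent 4, with the lowest value in 31 members and in 20.7% of all rows. In Erbb2-deficient adjacent 1 all 70 tested members lay above the mean of their group, by a median of 0.70 on the log2 scale. Control tumor 2 lay 0.77 above its group in the median, with 66 of 70 members above it, and control tumor 5 lay at -0.52. The median Spearman correlation between pairs of members over the 20 libraries was 0.61 (2415 pairs), and 0.64 after the mean of each group was removed. It was 0.63 within the large and 0.60 within the small subunit. Among the 55 members with no exon opposite it was 0.65. Beside these stand 0.01 for 21 mitochondrial ribosomal protein rows, 0.23 for 34 translation factor rows and -0.0015 for all tested rows. These correlations are descriptions, since the rows share the same libraries, scaling and depth. Reads on genes were 3.45% of the reads in Erbb2-deficient adjacent 1, the highest of all libraries. They were 3.06% in control tumor 2 and 2.776% in Erbb2-deficient tumor 2, each the highest of its group. Control adjacent 1, at 3.11%, was the second highest of its group. Erbb2-deficient tumor 1 was almost level with tumor 2, at 2.774%. Yet 13 of 70 members lay above the group mean in tumor 1 and 69 of 70 in tumor 2. The part of this share in the common movement was not tested.

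**Figure D1:**
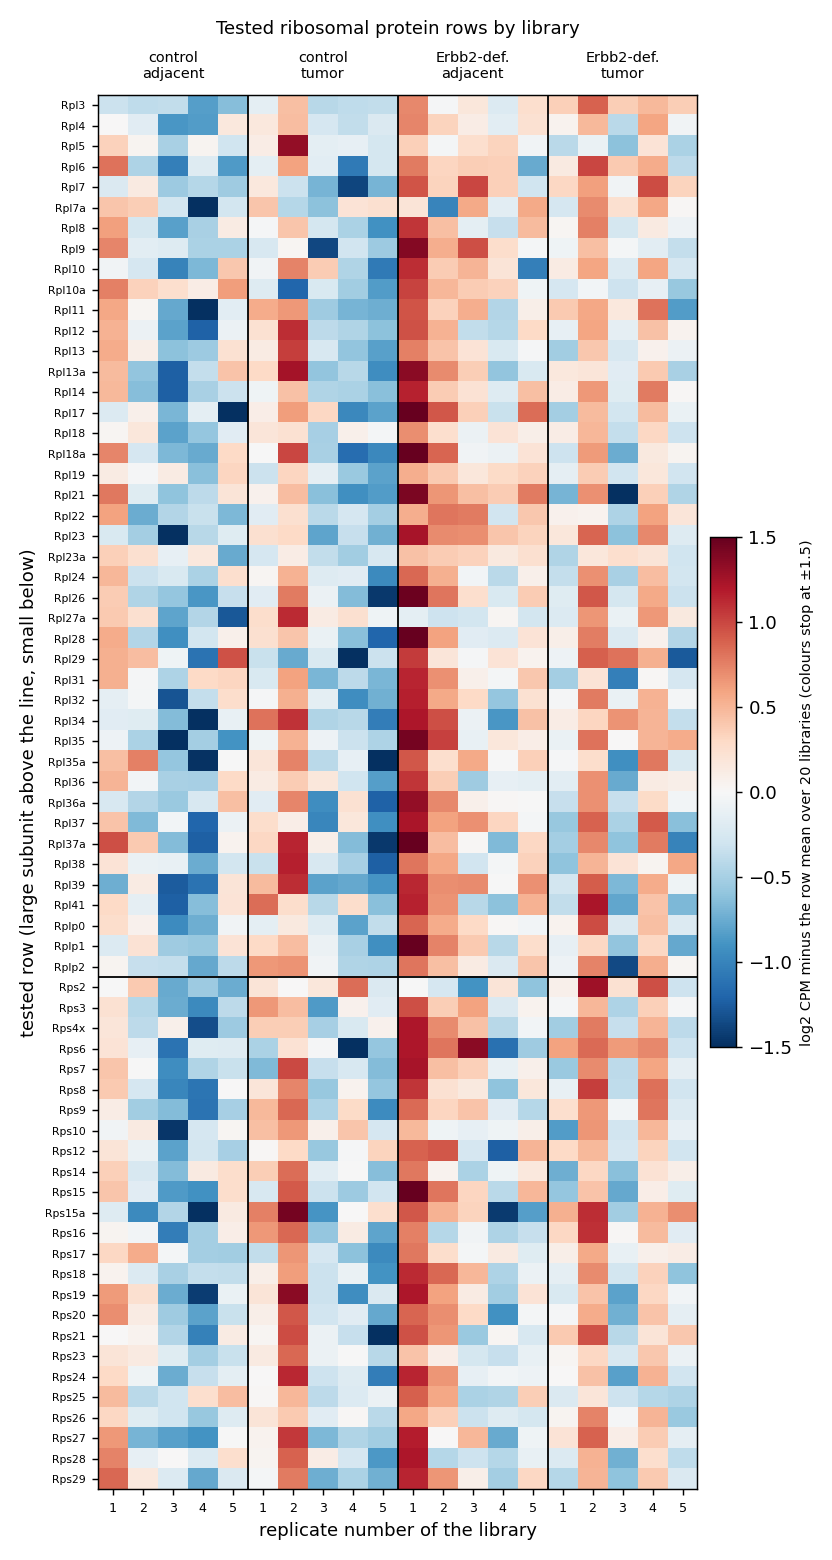
Each cell is the log2 CPM of a tested row in a library minus the mean of that row over the 20 libraries, with colours that stop at -1.5 and 1.5. The columns of control adjacent 1, control tumor 2, Erbb2-deficient adjacent 1 and Erbb2-deficient tumor 2 are red for most of the 68 rows drawn, of the large subunit above the line and of the small subunit below it.

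Summed over the 51 large subunit rows, the level was 1480 ± 406 CPM (SD, n = 5) in control adjacent, 1569 ± 567 CPM in control tumors, 2094 ± 622 CPM in Erbb2-deficient adjacent and 1746 ± 506 CPM in Erbb2-deficient tumors. The libraries ran from 1057 to 2065 CPM, 1045 to 2480 CPM, 1544 to 3128 CPM and 1289 to 2438 CPM in these groups, so all 4 groups overlapped. Of the small subunit rows 29 were summed, to 884 ± 224 CPM, 1001 ± 377 CPM, 1181 ± 440 CPM and 1015 ± 292 CPM in the same order, and here too the groups overlapped. Without control tumor 2 the mean of control tumors was 1341 CPM for the large and 843 CPM for the small subunit rows. The ratio of large to small subunit sums was 1.67 ± 0.07 in control adjacent, 1.57 ± 0.13 in control tumors, 1.81 ± 0.16 in Erbb2-deficient adjacent and 1.72 ± 0.05 in Erbb2-deficient tumors, and 1.42 to 2.04 over all libraries. No test was made on these sums.

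**Figure D2:**
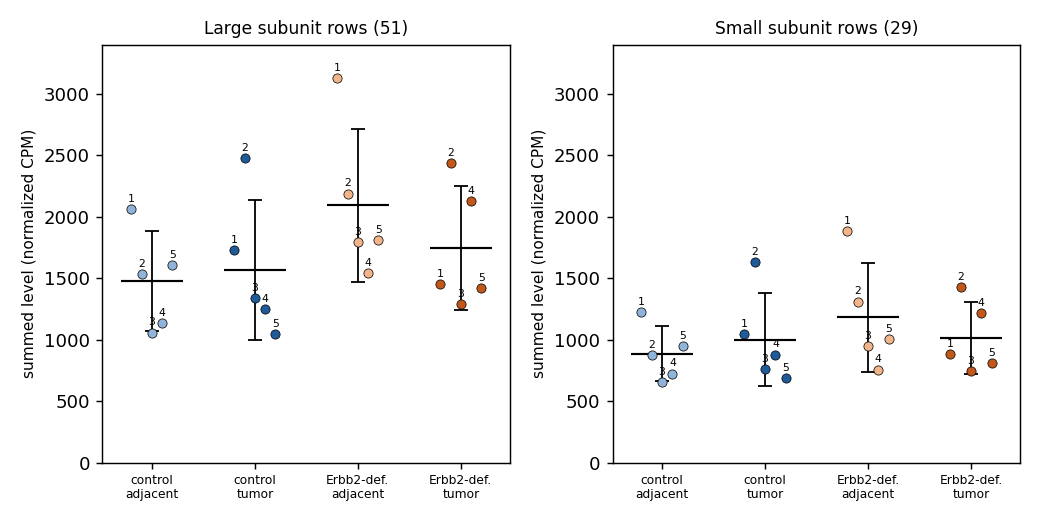
Points are libraries with their replicate numbers, the vertical axis is the summed level in normalized CPM, the horizontal lines are means and the whiskers SD (n = 5). Control tumor 2 stands highest of the control tumors in both sums, at 2480 CPM for the large and 1632 CPM for the small subunit rows.

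Control tumors were compared with control adjacent tissue to ask which rows mark tumors when Erbb2 is intact. Of the 70 tested members 1 was lower and 0 were higher in edgeR (adjusted p under 0.05), where 21.6% of all tested rows were called. The log2 fold change was above 0 in 50 of 70 members, beside 53.6% of all rows, and its median was 0.19 for the members and 0.07 for all rows. By subunit the median was 0.08 for the large (28 of 43 above 0) and 0.26 for the small (22 of 27 above 0). This direction rested on control tumor 2: without it 34.3% of the members were above 0 and their median was -0.16. Without control tumors 2 and 3 these were 36.1% and -0.14, and without control tumor 3 alone 74.3% and 0.27, with 2127 of 7523 rows called in all.

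Rpl10a, a protein of the L1 stalk at the exit site of the large subunit, was the 1 member called. Its row had 84.9, 63.8, 59.7, 53.8 and 77.4 CPM in the control adjacent libraries 1 to 5 and 43.3, 20.9, 42.3, 34.3 and 27.1 CPM in the control tumors. Every tumor lay below every adjacent library, a separation that 10.6% of all tested rows had in this comparison in 1 direction or the other. The log2 fold change was -1.01 ± 0.25 SE (edgeR adjusted p = 0.00643, and 0.000498 to 0.0480 over the alternatives tried). The row lies opposite CT025652.2, which has no row of its own in the files, and next to Tead3, a partner of the Hippo effectors.

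Rpl27a, a large subunit protein near the peptidyl transferase centre, had 92.3 ± 42.9 CPM (SD, n = 5) in control adjacent and 145 ± 53.9 CPM in control tumors, where control tumor 2 had 240 CPM. Its log2 fold change of 0.65 ± 0.30 SE did not pass (edgeR adjusted p = 0.124, and 0.0473 to 0.338 over the alternatives), and without control tumor 2 it was 0.38.

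**Figure D3:**
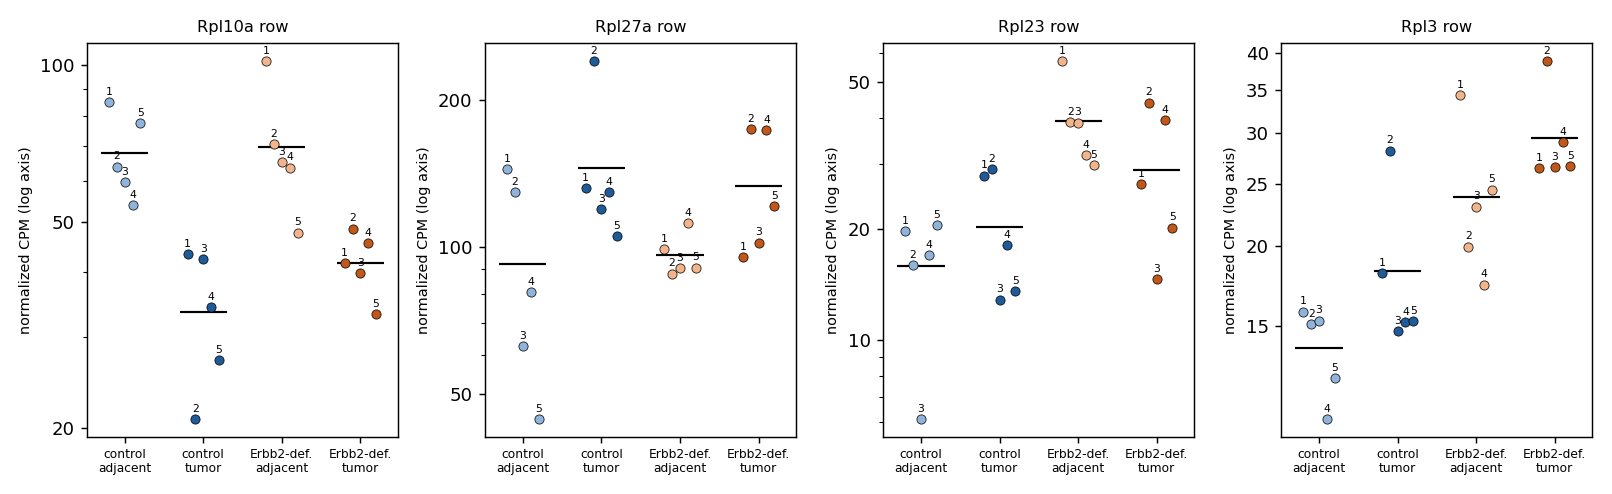
Points are libraries with their replicate numbers, the vertical log axes are normalized CPM and the lines are group means (n = 5). The Rpl10a row is lower in all control tumors (at most 43.3 CPM) than in all control adjacent libraries (at least 53.8 CPM), the Rpl27a row is at 240 CPM in control tumor 2, and the Rpl23 and Rpl3 rows are higher in all Erbb2-deficient than in all control adjacent libraries.

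Erbb2-deficient tumors were compared with adjacent tissue of the same genotype to ask which rows mark tumors when the epithelium lacks Erbb2. Again 1 of 70 members was lower and 0 were higher in edgeR, where 27.5% of all rows were called. Log2 fold changes were above 0 in 13 of 70 members, beside 47.1% of all rows. Its median was -0.24 for the members, -0.28 for the large subunit (4 of 43 above 0), -0.21 for the small (9 of 27 above 0) and -0.06 for all rows. Without Erbb2-deficient adjacent 1, the library in which most members were highest, 47.1% of the members were above 0 and the median was -0.01.

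Rpl10a was again the member called. Its row had 102, 70.6, 65.1, 63.6 and 47.6 CPM in Erbb2-deficient adjacent libraries 1 to 5 and 41.6, 48.5, 39.8, 45.4 and 33.1 CPM in the tumors. Only Erbb2-deficient adjacent 5 and tumor 2 overlapped, so that 0 of 70 members had groups without overlap, a separation found in 25.5% of all rows. In the fit its log2 fold change was -0.74 ± 0.24 SE (edgeR adjusted p = 0.0277). The call was lost in 7 of 17 alternatives (edgeR adjusted p up to 0.178), among them the fits without Erbb2-deficient adjacent 1 (0.0994) or 2 (0.0518) and without Erbb2-deficient tumor 1 (0.0605), 3 (0.0677) or 5 (0.0661). The difference of the Rpl10a change between genotypes was 0.27 on the log2 scale and did not pass (edgeR adjusted p = 0.99998).

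Rpl31, at the exit of the peptide tunnel, had 78.4 ± 27.8 CPM in Erbb2-deficient adjacent and 45.4 ± 14.4 CPM in Erbb2-deficient tumors (SD, n = 5). The libraries ran from 53.0 to 122 CPM and from 25.8 to 62.7 CPM, and overlapped. Its log2 fold change was -0.79 ± 0.31 SE (edgeR adjusted p = 0.0636, DESeq2 adjusted p = 0.0446). Rps2, near the entry of the messenger RNA channel, had higher tumor values, with 25.6 ± 7.97 CPM in adjacent libraries and 46.4 ± 22.0 CPM in tumors. Its tumors had 32.5, 76.8, 36.3, 61.8 and 24.5 CPM, and tumors 2 and 4 lay farthest above the adjacent range, whose highest value was 35.6 CPM. As a log2 fold change this was 0.85 ± 0.34 SE (edgeR adjusted p = 0.0655, DESeq2 adjusted p = 0.0436). Rpl31 lies opposite Tbc1d8, and Rps2 opposite the small nucleolar RNA host Snhg9 by 14 bases.

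Erbb2-deficient and control tumors were set side by side to ask how tumors that lack epithelial Erbb2 differ. No member was called in edgeR, where 0% of all rows passed, and DESeq2 called 0 members and 26 rows in all. At an unadjusted p under 0.05 edgeR had 5 of 70 members (4 higher, 1 lower), beside 11.5% of all rows. Log2 fold changes above 0 were found in 51 of 70 members, beside 49.1% of all rows, with a median of 0.16 for the members (0.23 large, 0.05 small) and -0.01 for all rows. The share above 0 was 94.3% without control tumor 2, 50% without control tumor 5 and 48.6% without Erbb2-deficient tumor 2. No member had groups without overlap, which 2.12% of all rows had.

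Rpl7, a large subunit protein, had 19.5, 13.6, 10.1, 5.71 and 10.2 CPM in control tumors 1 to 5 and 21.9, 27.6, 16.8, 35.7 and 22.3 CPM in Erbb2-deficient tumors. Only control tumor 1 reached into the range of the Erbb2-deficient tumors. The log2 fold change was 1.05 ± 0.33 SE (edgeR adjusted p = 0.227). Rpl3, which reaches toward the peptidyl transferase centre, had 18.1, 28.1, 14.7, 15.2 and 15.2 CPM in control tumors and 26.4, 38.8, 26.5, 29.0 and 26.7 CPM in Erbb2-deficient tumors. Here control tumor 2 alone overlapped. In the fit its log2 fold change was 0.69 ± 0.25 SE (edgeR adjusted p = 0.282), and 0.90 without control tumor 2.

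In adjacent tissue, Erbb2-deficient and control mice were compared to ask the same of the tissue outside tumors. Nearly all tested members had fold changes toward Erbb2-deficient tissue, and none passed the test. Log2 fold changes were above 0 in 69 of 70 members, beside 51% of all rows, and the exception, Rps28, was at -0.02. The median was 0.59 for the members and 0.01 for all rows. It was 0.63 for the large subunit, with 43 of 43 above 0, and 0.57 for the small, with 26 of 27. At an unadjusted p under 0.05 edgeR had 20 of 70 members, all higher (15 large, 5 small), beside 5.87% of all rows. After adjustment over all rows edgeR called 0 members and 0% of all rows, and DESeq2 called 0 members and 5 rows in all.

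The size of this difference moved with single libraries. Without Erbb2-deficient adjacent 1 the median was 0.32, 84.3% of the members were above 0 and 7 had an unadjusted p under 0.05. Without control adjacent 3 the median was 0.44, 90% were above 0 and 7 had such a p. That count was 9 without control adjacent 4, 10 without Erbb2-deficient adjacent 2, 12 without control adjacent 2 and 15 to 26 without each of the other 5 libraries in turn. Of all rows, 486 of 7496 had such a p without Erbb2-deficient adjacent 1 and 414 of 7500 without control adjacent 3. Over all of these fits 332 to 486 rows had it, of 7450 to 7543 tested. Since members vary together from library to library, the 69 of 70 is not 70 separate observations.

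Rpl23, a large subunit protein that also binds Mdm2, had 19.7, 16.0, 6.12, 17.0 and 20.5 CPM in control adjacent libraries 1 to 5 and 57.0, 39.1, 38.9, 31.8 and 29.8 CPM in Erbb2-deficient adjacent libraries. All of the second group lay above all of the first. As a log2 fold change this was 1.31 ± 0.36 SE (edgeR adjusted p = 0.468, DESeq2 adjusted p = 0.106). Rpl3 was the other member without overlap, with 10.8 to 15.8 CPM in control and 17.4 to 34.3 CPM in Erbb2-deficient adjacent libraries. These are 2 of 70 members, and 1.53% of all rows had such a separation. Rpl35, at the tunnel exit, had 13.8, 10.1, 2.30, 9.86 and 7.12 CPM in control and 42.5, 31.6, 13.5, 16.6 and 15.9 CPM in Erbb2-deficient adjacent libraries. Control adjacent 1 overlapped with Erbb2-deficient adjacent 3, and the log2 fold change was 1.49 ± 0.40 SE (edgeR adjusted p = 0.468). Rpl17, a lining protein of the tunnel, rested on few reads, with 1 to 9 counts in control and 7 to 44 counts in Erbb2-deficient adjacent libraries. Its log2 fold change was 1.499 ± 0.483 SE (edgeR adjusted p = 0.612).

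No tested row of the marker lists was called between genotypes in adjacent tissue, in edgeR or DESeq2, and 1 smooth muscle row had an unadjusted edgeR p under 0.05. The summed markers overlapped between the groups, and their part in the difference was not tested. The 9 epithelial markers were all detected in both groups and summed to 338 to 506 CPM in control and 333 to 763 CPM in Erbb2-deficient adjacent libraries, with a log2 fold change above 0 in 7 of 9. All 6 absorptive colonocyte markers were detected, at 112 to 190 CPM and 157 to 402 CPM in sum. The 4 of them that were tested all had log2 fold changes above 0, with a median of 0.96. The 7 goblet cell markers summed to 191 to 769 CPM and 466 to 898 CPM, and all 7 were above 0 (median 0.61). The 9 smooth muscle markers summed to 1075 to 2532 CPM and 1062 to 1395 CPM, and 8 of 9 were below 0 (median -0.33). Lymphoid markers summed to 8.41 to 35.6 CPM in control, with Cd3e and Cd3d at 0, and to 20.8 to 66.7 CPM in Erbb2-deficient adjacent libraries, with Cd3d at 0. The 2 tested lymphoid rows were above 0. Fibroblast markers summed to 11.6 to 112 CPM and 11.9 to 54.0 CPM, and the 4 tested rows were all below 0 (median -0.43). Enteric neuron and glia markers summed to at most 10.1 CPM in either group.

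**Figure D4:**
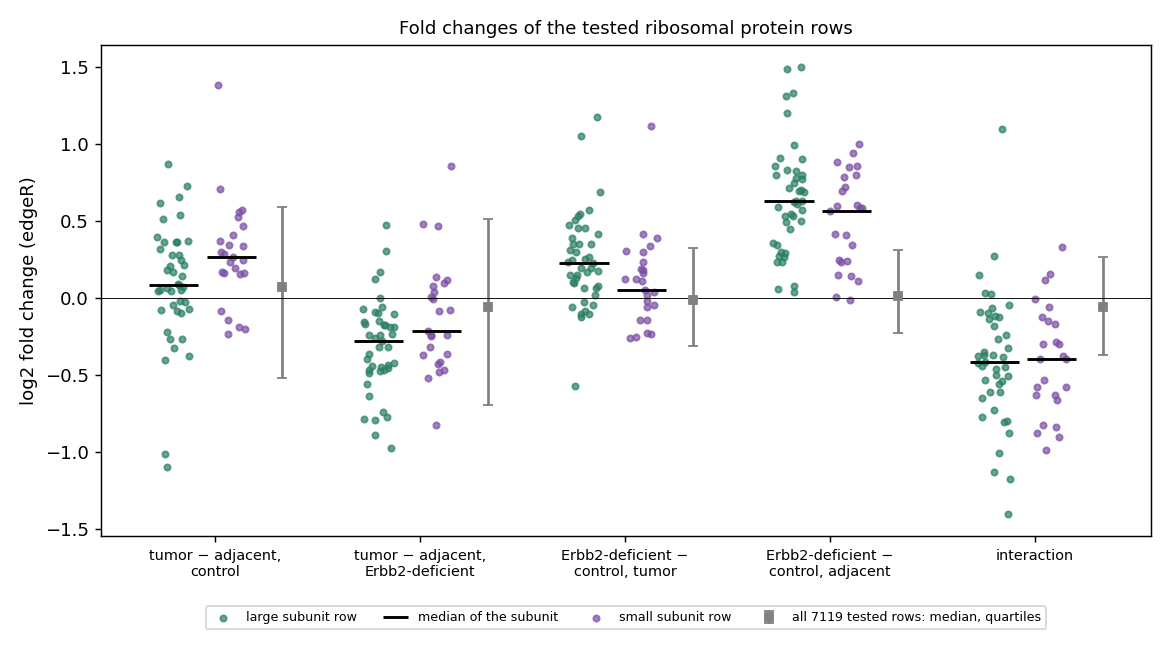
Each point is the edgeR log2 fold change of 1 of 68 tested rows in a comparison, black lines are medians over all tested rows of a subunit, and grey squares with whiskers are the median and quartiles of all tested rows. In adjacent tissue between genotypes all points but that of Rps28 (-0.02) lie above 0.

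The difference between genotypes of the tumor change (the interaction) was called for no member and for 0% of all rows in edgeR, and DESeq2 called none. It was above 0 in 8 of 70 members, beside 44.3% of all rows, with a median of -0.41 for the members (-0.41 large, -0.40 small) and -0.06 for all rows. An unadjusted p under 0.05 was found for 1 of 70 members, beside 4.07% of all rows. Rpl17 was at -1.40 ± 0.68 SE and Rpl5 at -0.80 ± 0.40 SE, both with edgeR adjusted p = 0.99998. Without control tumor 2 these were -1.12 and -0.35. Without control tumor 2 the median was -0.08 and 38.6% of the members were above 0, and without Erbb2-deficient adjacent 1 they were -0.19 and 27.1%. This value is built from the same groups as the 4 comparisons above and is no separate evidence for them.

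Among the member rows with the most counts were Rps25, Rpl4, Rpl27a, Rpl19, Rps24, Rpl5, Rpl36, Rpl13 and Rps23, with means of 240.7 to 91.4 counts that were not corrected for length. Here relative counting error is smallest among members, and of these none but Rpl27a was past an unadjusted p of 0.05 in control tumors. Rps25, needed by several viral internal ribosome entry sites, had 199 ± 55.2 CPM in control adjacent, 180 ± 44.8 CPM in control tumors, 220 ± 90.2 CPM in Erbb2-deficient adjacent and 153 ± 29.9 CPM in Erbb2-deficient tumors (SD, n = 5). Rpl4, which reaches into the peptide tunnel, had 110 ± 35.4, 134 ± 34.3, 164 ± 39.0 and 153 ± 42.8 CPM in the same order. Its genotype difference in adjacent tissue, 0.57 on the log2 scale, had an unadjusted edgeR p of 0.0401. Rpl19, which forms a bridge between the subunits, had 107 ± 24.1, 89.0 ± 27.9, 136 ± 13.2 and 106 ± 22.8 CPM. Rps24, mutated in some patients with Diamond-Blackfan anemia, had 80.9 ± 21.3, 97.1 ± 60.0, 121 ± 52.1 and 93.8 ± 33.2 CPM.

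Rpl5, which with Rpl11 and 5S ribosomal RNA forms the particle that binds Mdm2, had 81.0 ± 18.5, 104 ± 59.5, 94.9 ± 13.2 and 70.0 ± 17.0 CPM in the same order of groups. Control tumor 2 stood at 210 CPM and the other control tumors at 69.5 to 90.0 CPM. Rpl36 had 78.6 ± 25.1, 75.9 ± 23.0, 92.0 ± 44.3 and 81.6 ± 29.1 CPM, and Rpl13 71.8 ± 25.1, 74.3 ± 43.6, 86.2 ± 23.9 and 69.1 ± 17.1 CPM. Rps23, a protein of the decoding centre, had 64.2 ± 13.6, 78.3 ± 29.3, 69.1 ± 16.0 and 74.96 ± 14.41 CPM. In each of these rows the 4 groups overlapped.

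A few members were looked at for their role, after their values were seen. The stalk proteins Rplp0, Rplp1 and Rplp2, which recruit the elongation factors, had log2 fold changes between genotypes in adjacent tissue of 0.61, 0.83 and 0.75, and of -0.10, -0.80 and -0.24 between Erbb2-deficient tumors and adjacent tissue. None passed in edgeR. Rps6, the small subunit protein phosphorylated by S6 kinase downstream of mTORC1, had 1 to 37 counts per library. Its log2 fold change between genotypes was 1.11 in tumors and 1.001 in adjacent tissue, with unadjusted edgeR p of 0.0432 and 0.0632.

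Rows opposite a member were read separately, since they overlap a member's exon on the other strand. There were 17 such rows in the files, of which 12 passed the filter. Some had more counts than any member row: Cand2, opposite Rpl32 by 53 bases, had 993 to 3420 counts per library, Nkiras1, opposite Rpl15 by 105 bases, 630 to 2780, and Dipk1a, opposite Rpl5 by 953 bases, 933 to 1990. The rows of Rpl32, Rpl15 and Rpl5 had means of 50.9, 5.15 and 110.4 counts. Other genes can lie opposite the same row, as Ube2e1 does for Nkiras1. Of the 12 tested rows, 2 were higher and 1 lower in control tumors, beside 21.6% of all rows called, 2 were higher in Erbb2-deficient tumors, beside 27.5%, and none was called between genotypes. These counts are near or under the shares of all rows. Between genotypes the log2 fold change was above 0 in 1 of the 12 rows in adjacent tissue (median -0.15). In tumors it was also above 0 in 1 of 12 (median -0.37). Among the members 69 of 70 and 51 of 70 were above 0 in these comparisons. The opposite direction of the 2 sets was not tested.

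Nkiras1, which encodes an inhibitor of NF-kB signalling, rose in tumors of both genotypes. Its row had 750, 862, 636, 1016 and 561 CPM in control adjacent libraries 1 to 5 and 1940, 854, 1010, 1945 and 1702 CPM in control tumors. Control tumors 2 and 3 lay within the adjacent range and the other 3 above it. The log2 fold change was 0.96 ± 0.21 SE (edgeR adjusted p = 0.00299). In Erbb2-deficient mice the adjacent libraries spanned 617 to 712 CPM and the tumors 1220 to 1570 CPM, with no overlap. There the log2 fold change was 1.17 ± 0.21 SE (edgeR adjusted p = 0.000474). The reads of Rpl15, Ube2e1 and Nkiras1 itself cannot be told apart in this row.

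Sphk2, opposite Rpl18 and the circadian transcription factor Dbp, fell in control tumors and varied widely between adjacent libraries. Its row had 236, 124, 826, 1237 and 3541 CPM in control adjacent libraries 1 to 5 and 95.2 to 313 CPM in control tumors. In the fit its log2 fold change was -2.76 ± 0.67 SE (edgeR adjusted p = 0.00609, and up to 0.0574 over the alternatives). In Erbb2-deficient mice it was -1.54 ± 0.64 SE (edgeR adjusted p = 0.0804, DESeq2 adjusted p = 0.0488), with 90.6 to 584 CPM in adjacent libraries and 54.3 to 122 CPM in tumors. Rpl18's own row had a log2 fold change of 0.25 in control and -0.17 in Erbb2-deficient tumors. The hour of sampling is not given in the labels, and its part was not tested.

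Cand2, which belongs to a family of cullin regulators, had 1296 ± 308 CPM in control adjacent, 1638 ± 582 CPM in control tumors, 1255 ± 471 CPM in Erbb2-deficient adjacent and 1139 ± 203 CPM in Erbb2-deficient tumors (SD, n = 5). Its highest library was control adjacent 1, control tumor 2, Erbb2-deficient adjacent 1 and Erbb2-deficient tumor 2 in turn, the same libraries that were highest for most member rows. Ccdc84, opposite Rps25, had 344 ± 77.3, 423 ± 132, 330 ± 128 and 317 ± 56.7 CPM in the same order, and the same 4 libraries were its highest. Wdr38, opposite Rpl35 and Gm13496, had 137 ± 31.5, 143 ± 36.3, 129 ± 42.6 and 108 ± 11.0 CPM. Dipk1a had 989 ± 169, 1176 ± 195, 922 ± 171 and 982 ± 131 CPM, and its group ranges overlapped. None of these 4 rows passed in edgeR.

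Tbc1d8, a Rab GTPase activating protein family member opposite Rpl31, had 245 ± 46.9, 342 ± 120, 209 ± 25.6 and 273 ± 63.3 CPM in the same order. Lrsam1, a ubiquitin ligase gene opposite Rpl12 and Fam129b, had 49.8 ± 14.7, 84.3 ± 44.7, 44.6 ± 15.7 and 81.8 ± 15.6 CPM. Control tumor 2 was the lowest control tumor in both rows, at 168 and 9.99 CPM. With all libraries neither passed, and the log2 fold changes were 0.48 and 0.76 in control and 0.38 and 0.87 in Erbb2-deficient tumors (edgeR adjusted p = 0.116 to 0.235). Without control tumor 2 both passed in control tumors, at 0.64 (edgeR adjusted p = 0.0209) and 1.03 (0.00607). The third row called in control tumors, Gm15420, is an antisense row opposite Rps10, named after its values were seen. It rose in both genotypes, with log2 fold changes of 1.63 and 1.93 (edgeR adjusted p = 0.00715 and 0.00191).

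**Figure D5:**
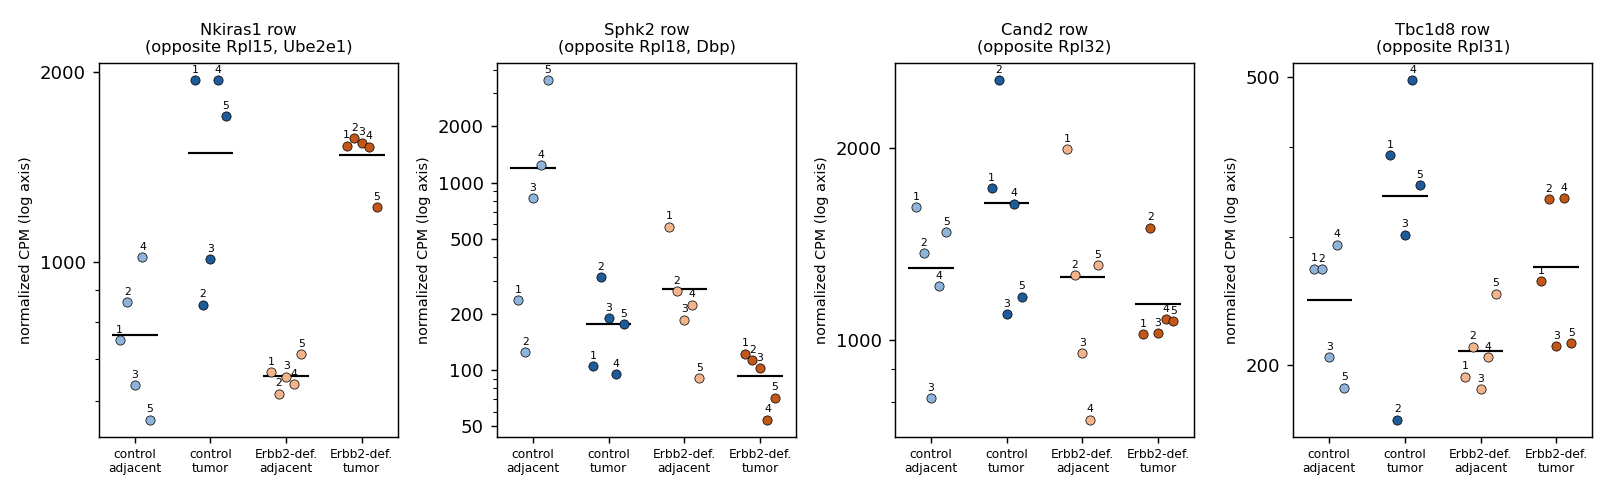
Points are libraries with their replicate numbers, the vertical log axes are normalized CPM and the lines are group means (n = 5). The Nkiras1 row is higher in all Erbb2-deficient tumors (1220 to 1570 CPM) than in all Erbb2-deficient adjacent libraries (617 to 712 CPM), and control adjacent 5 stands at 3541 CPM in the Sphk2 row.

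Other genes of ribosome production were read from lists. Ribosome biogenesis factors had 36 of 100 listed rows tested, and 7 were higher and 3 lower in control tumors, beside 21.6% of all rows called, with a median log2 fold change of 0.38. Nucleolin (Ncl), which organizes the nucleolus, went from a mean of 19.0 CPM in adjacent to 49.1 CPM in tumor libraries of the controls, with a log2 fold change of 1.37 (edgeR adjusted p = 0.00167). Rrs1, needed for large subunit assembly, averaged 4.97 and 15.9 CPM, a log2 fold change of 1.65 (adjusted p = 0.00241). Rrp1b (opposite Hsf2bp) also rose, and Pes1 (opposite 4930556J24Rik), of the PeBoW complex, fell. In Erbb2-deficient tumors 7 were higher and 2 lower, beside 27.5% of all rows. Lyar, a nucleolar protein, went from a mean of 10.3 to 30.2 CPM, with a log2 fold change of 1.55 (edgeR adjusted p = 0.000329). Mybbp1a (opposite Spns2) and Rrs1 rose, and Tsr1 (opposite Srr) fell.

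Translation factors had 34 of 57 rows tested, and 3 were higher and 0 lower in control tumors, fewer than the 21.6% of all rows called: Eif3b, a scaffold subunit of the initiation factor eIF3, Eif4g3, and the poly(A) binding protein Pabpc1. Pabpc1 went from a mean of 22.2 to 46.9 CPM in the controls, with a log2 fold change of 1.08 (edgeR adjusted p = 0.0414). In Erbb2-deficient tumors 3 rose and 1 fell, where 27.5% of all rows were called. Eif3b went from a mean of 16.1 to 35.2 CPM, with a log2 fold change of 1.13 (edgeR adjusted p = 0.00334). Pabpc1 and Eif4g1 rose too, and Eef2k, the kinase that inhibits elongation factor eEF2, fell in a row opposite Gm15774. Between genotypes none was called. The log2 fold change was above 0 in 31 of 34 in adjacent tissue, with a median of 0.40. There 9 of 34 had an unadjusted edgeR p under 0.05, beside 5.87% of all rows. In tumors it was above 0 in 28 of 34, with a median of 0.50, and 11 of 34 had such a p, beside 11.5% of all rows.

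Of 11 tested regulators of ribosome synthesis, 2 were called in control and 4 in Erbb2-deficient tumors, beside 21.6% and 27.5% of all rows. Rptor, the mTORC1 scaffold, rose and Mlst8, another mTORC1 subunit, fell in tumors of both genotypes. The Rptor row lies opposite Rptoros and went from a mean of 6.27 to 30.1 CPM in the controls, where control tumors 2 and 3 had 2.72 and 4.60 CPM and the others 42.6 to 52.4 CPM. Mlst8 lies opposite Bricd5 and averaged 49.1 and 19.2 CPM. Gabpa, an ETS factor gene opposite Atp5j, rose and Tsc2, an inhibitor of mTORC1 opposite Pkd1, fell in Erbb2-deficient tumors. No regulator was called between genotypes.

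Ribosomal proteins outside the symbol rule had 7 of 11 rows tested, and none was called in any comparison. Their median log2 fold change was 0.15 in control and -0.39 in Erbb2-deficient tumors, and 0.36 between genotypes in adjacent tissue, where 6 of 7 were above 0. Mitochondrial ribosomal proteins, which serve the separate ribosomes of mitochondria, had 21 of 78 rows tested, with 1 higher and 4 lower in control tumors and 1 higher and 3 lower in those of Erbb2-deficient mice, near or under the 21.6% and 27.5% of all rows. The Mrpl9 row, opposite the antizyme gene Oaz3, went from a mean of 32.9 to 2.25 CPM in the controls, a log2 fold change of -3.82 (edgeR adjusted p = 0.000510). Mrpl10 (opposite Gm11574) and Mrps18b (opposite Gm16279) fell and Mrpl18 (opposite Tcp1) rose in both genotypes, and each of these rows has an exon of another gene opposite. Between genotypes in adjacent tissue their median was -0.04, with 9 of 21 above 0.

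Ribosomal protein pseudogenes, whose reads can be shared with the parent genes, had 15 of 226 rows tested, and 2 were called in tumors of each genotype, beside 21.6% and 27.5% of all rows. Rpl9-ps7 rose in tumors of both genotypes, from 0.713 to 7.50 CPM in control mice and from 1.45 to 18.98 CPM in Erbb2-deficient mice. In control tumors its row had 0 to 18 counts. Rpl31-ps13 fell in tumors of both genotypes. In Erbb2-deficient against control adjacent tissue 13 of 15 were above 0, with a median of 0.16. Of 13 non-coding small nucleolar RNA hosts with a 5' TOP motif 1 was tested, and it was not called.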

How the data were processed

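RNA-seq was analysed from 20 mouse libraries in 4 groups of 5, with groups and replicate numbers taken from the labels. The deposited files hold raw counts, 1 row per gene symbol. The submitters' processing notes name Trimmomatic, HISAT2 2.2.1, HTSeq 2.0.2, DESeq2 and build mm39, and the strand setting is not given in the sources used here. Summary rows that name no gene (96.6% to 97.5% of reads) entered neither library sizes nor tests. Depth was 1071737 to 1944309 counts on genes per library, so a row near 10 counts has a large counting error.

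The members, lists and tests were chosen with earlier results of these data known. Overlaps came from GENCODE M21 (GRCm38), another build than the counts, used for names and overlaps only. Promoters came from RefSeq (GRCm38.p6).

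In R 4.3.3, edgeR 4.0.16 fitted a means model of the 4 groups to all 20 libraries. Rows were kept by filterByExpr at a minimum count of 10, scaled by TMM, and tested by quasi-likelihood F tests with Benjamini-Hochberg adjustment over all tested rows at 0.05. The SE is the log2 fold change divided by the square root of F. CPM is TMM scaled, with a prior count of 2 for log2 CPM. Members were named if called, among the 3 of smallest p in a comparison, or among the 10 with the most counts. Of opposite rows the 8 with the most counts were named, and of other lists up to 4 called rows of smallest p. Of the small subunit members 2 are not reported here: they are in the fits and in counts and medians over members, and in no named row, sum of levels or figure. The fit was checked on simulated counts. Alternatives were RLE factors, DESeq2 1.42.0, no filter, a minimum count of 3, only the groups compared, a replicate block, each library left out, control tumors 2 and 3 left out, and only members with no exon opposite. For summed levels they were RLE factors and CPM without TMM factors. Same-numbered tumor and adjacent samples had correlations of -0.115 to 0.370 in controls and -0.016 to 0.228 in Erbb2-deficient mice. Same-numbered samples of different genotypes, which cannot share a mouse, had -0.26 to 0.43. These values do not settle whether replicate numbers pair samples.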

Additional observations from a re-analysis of the deposited data

Results flagged for a closer look

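Of 108 groups of 5 libraries looked at (named rows and subunit sums), 7 had a highest or lowest library set apart from the rest of its group, where chance gives about 5.4. Control tumor 2 was the highest control tumor in 4 of them: Rpl27a at 240 CPM (next 132 CPM), Rpl31 at 83.5 CPM (next 46.1 CPM), Rpl3 at 28.1 CPM (next 18.1 CPM) and Rpl5 at 210 CPM (next 90.0 CPM). Erbb2-deficient tumor 2 was set apart high for Rpl3 at 38.8 CPM (next 29.0 CPM) and for Cand2 at 1500 CPM (next 1078 CPM). Erbb2-deficient tumor 5 was set apart low for Nkiras1 at 1220 CPM (next 1523 CPM). Control tumor 2 had the lowest epithelial and highest lymphoid marker sum of all libraries, and the part of this in these values was not tested.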

How the results depend on the processing

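Called member rows in control tumors (1 with all libraries) were 2 with a replicate block, which added Rpl27a, beside 1428 of 7119 rows called in all. They were 0 among members with no exon opposite, a setting that removes Rpl10a by construction. When a library was left out they were 1 to 2, with 2 in each fit without control tumor 1, 3, 4 or 5. Over the fits with a library left out, 1188 to 2127 rows were called in all. In Erbb2-deficient tumors (1) called members were 3 with DESeq2, beside 2282 of 7119 rows called in all, and 3 without control tumors 2 and 3, beside 2939 of 7946. They were 0 with no filter, beside 2310 of 27672, and 0 at a minimum count of 3, beside 2409 of 12887. With no exon opposite they were 0. With a library left out they were 0 to 2, where 1573 to 2083 rows were called in all. Calls between genotypes and for the interaction were 0 under every alternative run. Small changes of no firm sign were those of Wdr38 in control tumors (-0.091 to 0.20 over libraries left out), Cand2 in Erbb2-deficient tumors (-0.27 to 0.10) and Ccdc84 there (-0.20 to 0.17, and 0.014 with the replicate block). The block changed no other call of a named member. Control tumors correlated best with the same-numbered control adjacent library in 3 of 5 cases, and Erbb2-deficient tumors in 1 of 5. The causes were not tested. Some rows that did not pass gained a call under alternatives, in 2 of 17 each for Rpl31 and Sphk2 in Erbb2-deficient tumors, Tbc1d8 in control tumors and Lrsam1 in both, and in 4 of 17 for Rps2 in Erbb2-deficient tumors. Tested members had a median of 37.8 counts per library (28 for all tested rows), and no limit of detection was computed.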
